A study of Drosophila melanogaster with 3 samples.

Results

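LC4 neurons were followed at 48, 72 and 96 h after puparium formation (APF). They are the cells that the study's authors annotated as LC4 in their final dataset, and there were 1210 of them among 6003 cells. They made up 385 of 2595 cells at 48 h APF, 604 of 2369 at 72 h APF and 221 of 1039 at 96 h APF. At each stage they were set against the cells annotated as LPLC1, LPLC2 and X as 1 pool, which numbered 2210, 1765 and 818. X stands for ectopic cells of unknown type, and LPLC2 made up most of the pooled cells at each stage (1442, 994 and 474).

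LC4 (lobula columnar 4) is a class of visual projection neuron of the Drosophila optic lobe. Its dendrites lie in the lobula, its axons end in an optic glomerulus of the central brain, and there it contacts descending neurons that drive escape from looming objects, the giant fibre among them. LPLC1 and LPLC2 are related projection neurons with dendrites in both the lobula and the lobula plate. In neurons of this kind, combinations of transcription factors hold the type, and families of surface proteins take part in the choice of partners: Dpr proteins bind DIP proteins, and Beat proteins bind Side proteins.

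Females of a split-GAL4 driver line were mated to males with the nuclear reporter UAS-His2A-GFP and the third chromosome of 1 wild-type DGRP strain (from the Drosophila Genetic Reference Panel), so every cell compared here, LC4 or not, carried the reporter and a DGRP chromosome. The LC4 driver was R47H03-p65.AD with 72E01-GAL4.DBD, the LPLC1 driver R64G09-p65.AD with R37H04-GAL4.DBD, and the LPLC2 driver R19G02-p65.AD with R75G12-GAL4.DBD. A cross is the replicate of a type, and a pooled cross below means all other cells of 1 strain, from more than 1 driver. LC4 had 6 crosses at 48 h APF (DGRP 399, 535 and 555 from the older collection window, DGRP 730, 799 and 805 from the younger) and 4 at each later stage (399 and 535 older, 799 and 805 younger). LC4 and the other cells of a strain had different mothers and shared the paternal chromosome and the collection window. Cell type and the mother's driver line therefore cannot be told apart in any comparison below, and the strain block does not remove this. Each stage was 1 library, so stage and library cannot be told apart. A split-GAL4 driver labels any cell in which both of its parts are active, and the sorted cells were divided into types by clustering and marker genes.

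The annotation followed the design of the crosses. At the 2 later stages, 2 of the strains were not crossed to the LC4 driver, and 0 of their 1058 cells were annotated as LC4, which allows a share of up to 0.284%. In the 4 strains crossed to it, 825 of 2350 cells were. The marker kn, a transcription factor of the COE family, had at least 1 UMI (unique molecular identifier, a count of 1 captured transcript) in 385 of 385, 602 of 604 and 221 of 221 LC4 cells at the successive stages, with median depths of 23658, 29764 and 21840 UMIs per cell. LPLC1 and LPLC2 cells, at median depths of 16775 to 23183 UMIs, had a kn UMI in 1.38% to 5.42% of cells. After thinning every cell to 10000 UMIs, kn remained in 345 of 345, 531 of 540 and 185 of 186 LC4 cells deep enough to be thinned and in 0.529% to 3.06% of LPLC1 or LPLC2 cells. The other markers were also widespread in LC4 before thinning: lov, a BTB domain transcription factor, in 96.1%, 86.6% and 91.9% of cells, and Lim3, a LIM homeodomain factor, in 94.5%, 96.5% and 96.4%. These markers had been used to annotate LC4, so their shares are a description.

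LC4 cells held more UMIs than their neighbours. The mean over crosses of the median UMIs per cell was 26390 in LC4 against 19400 in the pooled cells at 48 h APF, higher in 6 of 6 crosses (exact permutation of signs, two-sided, p = 0.0313, and 0.188 when adjusted over 12 such tests). It was 30020 against 21300 at 72 h and 22240 against 17410 at 96 h, higher in 4 of 4 crosses each time (exact p = 0.125, the smallest that 4 crosses allow). Summed UMIs per LC4 cross ran from 351647 to 2685838, from 1958415 to 7041162 and from 949792 to 1373257. At 48 h the LC4 crosses of DGRP 399 and 555 held only 14 and 12 cells, and the male-specific transcript roX1 was at 0.0762 and 0.0853 UMIs per 10000 in them against 10.7 to 16.1 in the other 4, so the counts for that stage are also given without these crosses.

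Markers of other cells were scarce in LC4. The 4 hemocyte markers had no UMI, the summed glial markers stood between 0.168 and 0.656 UMIs per 10000 over all LC4 crosses, and the photoreceptor markers between 0.0397 and 0.503. In the pooled cells the last 2 sums ran up to 1.97 and 9.52, and their part in the genes that were low in LC4 was not tested. At 96 h both sums overlapped between LC4 and the pool. By the calls defined below, 1 glial marker was higher in LC4 than in the pool at 72 h and 1 at 96 h. Lower was 1 at 48 h and 1 at 72 h. Of the progenitor markers, 1 was higher and 1 lower at each later stage. Of the markers of other-transmitter neurons, 1 was higher at 48 h, and 1, 1 and 2 were lower at the successive stages. Each higher one except the glial marker at 96 h was also higher than in both types. Dissociation stress genes summed to 105.5 to 153.8 in LC4 at 48 h against 86.0 to 117.9 in the pooled cells, to 33.6 to 52.9 against 47.8 to 66.3 at 72 h, and to 27.7 to 44.5 against 35.0 to 64.9 at 96 h. Their part in the results was not tested. Pairs of libraries shared 2, 1 and 5 cell barcodes.

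UMIs were summed per cross, for LC4 and for the pooled cells of the same strain, and levels are given as UMIs per 10000 UMIs of the sum. A gene was called where edgeR's quasi-likelihood test, with the strain as a block, gave a Benjamini-Hochberg adjusted p under 0.05 and the levels differed at least 2-fold. At 48 h, 497 of 7492 genes (6.63%) were called higher in LC4 and 707 (9.44%) lower. At 72 h, 529 of 7178 (7.37%) were higher and 926 (12.9%) lower, and at 96 h 488 of 6107 (7.99%) were higher and 830 (13.6%) lower. Without the 2 smallest crosses the counts at 48 h were 460 and 664. The median log2 fold change over all genes was -0.02, 0.01 and -0.02. A fold change of such sums alone does not tell fewer cells with a transcript from less of it per cell. Shares of single cells with a UMI are given for kn, lov, Lim3 and CG18636.

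Because the pool is mostly LPLC2, a gene was said to stand apart from both types only where it was also called in the same direction against LPLC1 and against LPLC2. This held for 239 of 6717 genes higher (3.56%) and 270 lower (4.02%) at 48 h, for 299 of 6620 higher (4.52%) and 415 lower (6.27%) at 72 h, and for 278 of 5842 higher (4.76%) and 406 lower (6.95%) at 96 h. Of 5629 genes tested at every stage, 52 stood apart as higher each time, which is 21.8%, 17.4% and 18.7% of the 3 lists, and 93 as lower each time, which is 34.4%, 22.4% and 22.9%.

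The types were annotated from clusters of these same cells, built on 1000 variable genes. Those genes, rebuilt here, held larger shares of calls than the rest: 24.7%, 20.4% and 23.1% of them were higher in LC4 and 37.3%, 51.1% and 49.8% lower, against 4.55% to 5.87% and 6.24% to 8.51% of the genes outside. An adjusted p is therefore printed only for genes outside that set, and for none of the factors used to annotate the types (among them kn, lov and Lim3 for LC4, br and tup for LPLC1, and salm, salr, Lim1 and Sox102F for LPLC2). Genes inside it, among them most of the transcription factors below, are described by their values, with log2 fold changes against the pool ± SE.

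**Figure D1:**
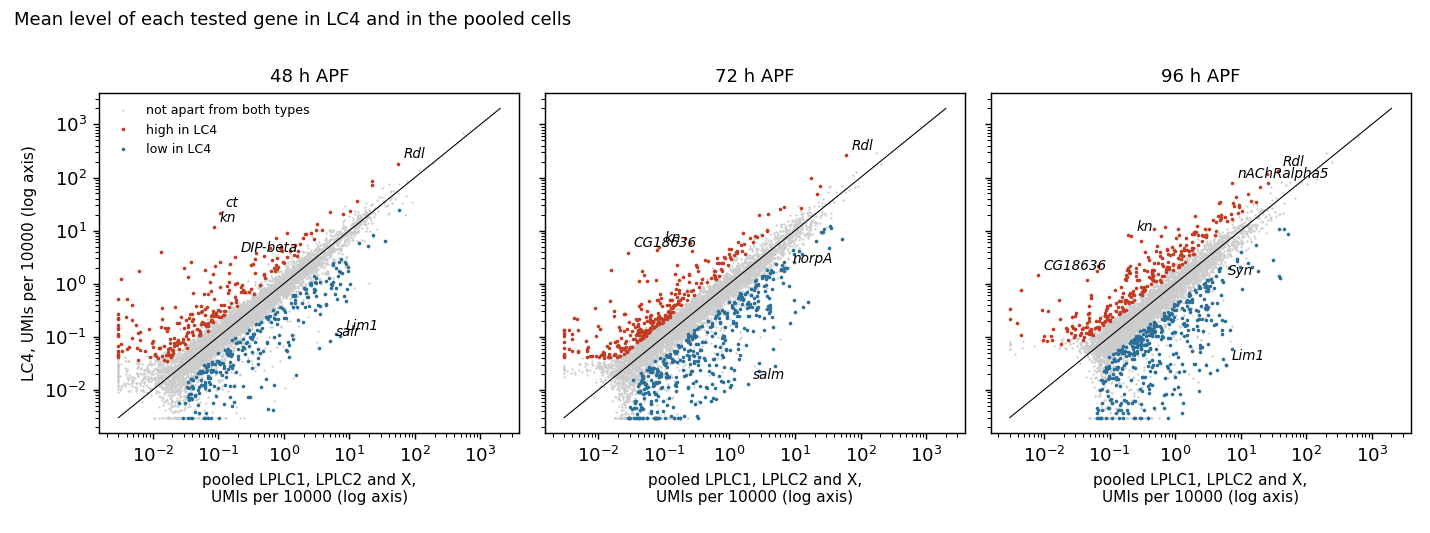
Mean UMIs per 10000 of each tested gene in LC4 (vertical) against the pooled LPLC1, LPLC2 and X cells (horizontal) at 48, 72 and 96 h APF, both on log axes. Genes that stood apart from both other types are coloured, 239, 299 and 278 higher in LC4 and 270, 415 and 406 lower, and levels under 0.003 are drawn at 0.003.

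LC4 carried a set of transcription factors that was nearly absent from LPLC1 and LPLC2, and lacked one that both of them carried. The kn level in the 6 crosses at 48 h ran from 8.87 to 13.9 (median 11.6) UMIs per 10000. In the crosses of DGRP 399, 535, 799 and 805, the order used for all values at the later stages, it was 5.17, 5.03, 4.62 and 4.85 at 72 h and 8.70, 9.39, 6.286 and 7.33 at 96 h. No LPLC1 or LPLC2 cross exceeded 0.0665. Because kn had been used to annotate LC4, this separation is a description. Values of LPLC1 and LPLC2 crosses are given in the text over the strains that also had LC4. The pool had kn means of 0.0862, 0.0856 and 0.209, and the fitted folds were 180, 56.2 and 44.4. The X cells alone, some of which had kn UMIs, were at 1.02, 0.817 and 1.56.

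ct (cut), a homeodomain factor known for the identity of external sensory organs, was not among the markers and behaved alike. It was among the variable genes at each stage, so its values are also a description. Its level was 19.2 to 24.5 (median 21.8) at 48 h, 7.03, 7.94, 6.92 and 7.49 at 72 h, and 10.6, 13.7, 10.1 and 12.51 at 96 h. LPLC1 and LPLC2 crosses stayed at or under 0.0957, while X cells had means of 1.91, 2.86 and 4.17. The log2 fold changes of ct against the pool were 7.73 ± 0.16, 5.25 ± 0.23 and 4.28 ± 0.17.

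Lim3 was at 1.71 ± 0.227 in LC4 at 48 h (SD, n = 6), 1.78 ± 0.0936 at 72 h (n = 4) and 2.11 ± 0.146 at 96 h (n = 4), against 0.00615, 0.0155 and 0.0655 in the pool. For lov the LC4 means were 2.51 ± 0.666, 1.13 ± 0.0515 and 1.95 ± 0.0913 against 0.0378, 0.0413 and 0.191. Other factors of the same pattern were the LIM homeodomain protein ap (apterous), at means of 1.97, 1.45 and 1.71 against 0.0299, 0.05002 and 0.0651, and the zinc-finger factors klu, at 1.77, 1.15 and 1.15 against 0.0636, 0.0744 and 0.0451, and zfh2, which also has homeodomains, at 2.59, 1.52 and 1.80 against 0.106, 0.146 and 0.474.

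The zinc-finger factor erm (earmuff) was scarce but restricted in the same way. It stood at 0.235, 0.242, 0.191 and 0.214 in the LC4 crosses at 72 h, against at most 0.00635 in any LPLC1 or LPLC2 cross. Being outside the variable genes at that stage, erm has a test: log2 fold change 5.50 ± 0.32 against the pool, adjusted p = 2.88e-08. At 96 h it was 0.288, 0.313, 0.368 and 0.290, with a log2 fold change of 5.21 ± 0.41 (adjusted p = 1.01e-06).

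The spalt genes salm and salr are zinc-finger factors that lie near each other on chromosome arm 2L (salr at 11358873 to 11373636, salm at 11434311 to 11445614, BDGP6 assembly), and both were nearly absent from LC4. At 72 h salm was at 0.0153, 0.00510, 0.0220 and 0.00852 in LC4 and at 1.83 to 2.06 in the pool. At the same stage salr was at 0.0306, 0.0127, 0.0196 and 0.0270 against 2.70 to 2.996. No cross came near the other group. Both had been used to annotate LPLC2, so their values are a description. salm was lower by 152-fold (log2 fold change -7.25 ± 0.17) and salr by 117-fold (-6.87 ± 0.13). At 96 h salm was lower by 183-fold, and at 48 h salr by 74.4-fold. LPLC1 and LPLC2 both carried salm, with means of 3.48 and 3.34 at 48 h, and so did X cells (3.37).

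Lim1, a LIM homeodomain factor and like Sox102F an LPLC2 marker, was at means of 0.105, 0.0278 and 0.0289 in LC4 against 7.23, 4.99 and 6.09 in the pool, and Sox102F, an HMG box factor, at 0.111, 0.0587 and 0.0377 against 6.15, 4.65 and 5.35. The homeodomain gene slou had no UMI in LC4 at 96 h and a mean of 0.302 in the pool. The Krüppel-like factor luna was lower to a degree that differed by stage. LC4 had a mean of 2.90 at 48 h against 7.502 (log2 fold change -1.34 ± 0.10, adjusted p = 3.58e-09), then 0.134 against 3.34 and 0.0232 against 2.34.

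The factors used to mark LPLC1 did not separate LC4 from the pool, since LC4 lay between the types. For br (broad), an ecdysone-induced factor, LC4 had means of 32.8, 25.2 and 23.7, LPLC1 49.2, 39.1 and 48.8, and LPLC2 0.269, 0.212 and 0.0801. For the LIM homeodomain factor tup (tailup) LC4 had 0.507, 0.451 and 0.525, LPLC1 2.04, 1.18 and 2.18, and LPLC2 0.0111, 0.0118 and 0.00483, and the sign of the LC4 difference for tup turned when LPLC1 and LPLC2 were weighted equally in the pool.

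Of the other optic lobe transcription factors listed, 53, 47 and 47 were tested. Called higher were 7, 5 and 6 of them, beside 6.63%, 7.37% and 7.99% of all genes. Called lower were 24, 24 and 26, beside 9.44%, 12.9% and 13.6% of all genes. Apart from both types stood 2, 5 and 4 as lower, beside 4.02%, 6.27% and 6.95% of all genes. As higher stood apart 6, 5 and 5, beside 3.56%, 4.52% and 4.76%.

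**Figure D2:**
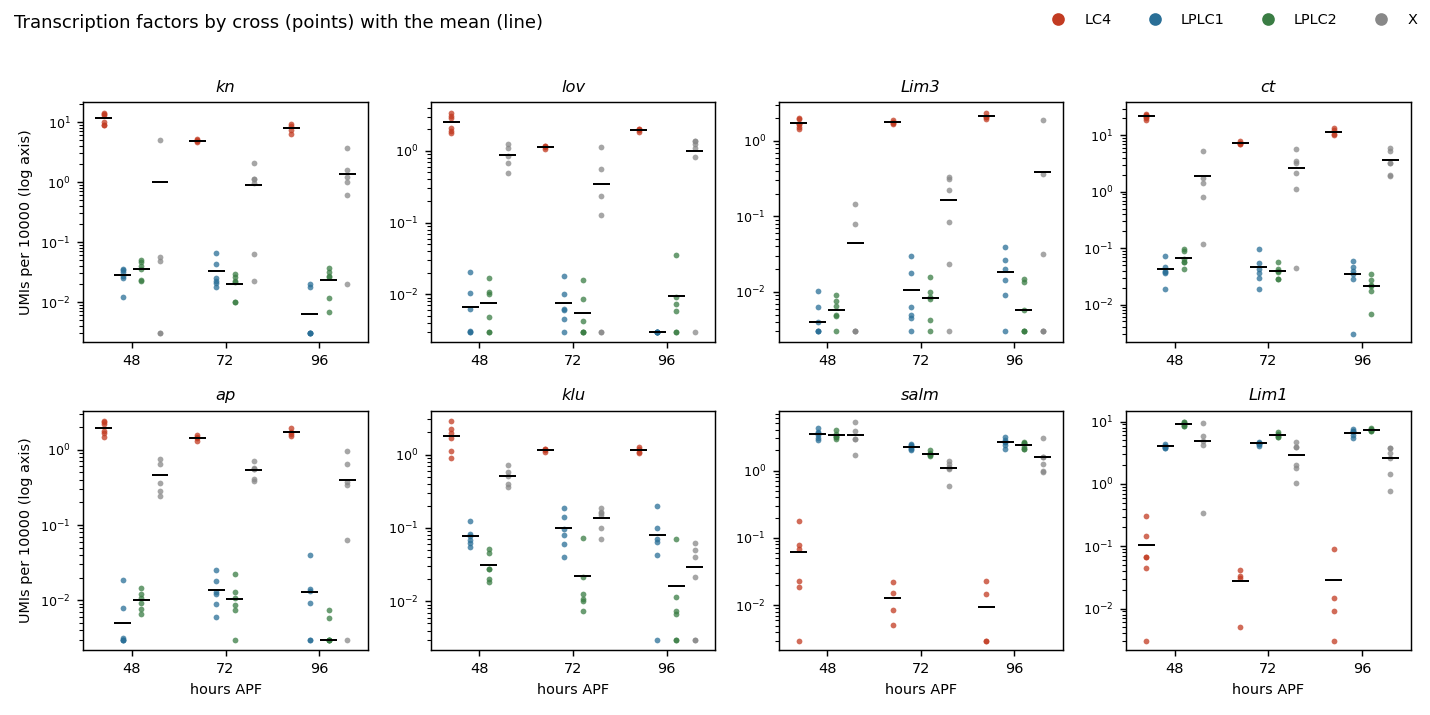
Levels of 8 transcription factors by cross in UMIs per 10000 (log axis) against hours APF, with points for crosses of LC4, LPLC1, LPLC2 and X that have at least 10 cells and a line at their mean. The LC4 points of kn, lov, Lim3 and ct lie above every LPLC1 and LPLC2 point, those of salm and Lim1 below, and levels under 0.003 are drawn at 0.003.

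Some genes whose role in these neurons is not known were also higher in LC4 than in both other types. CG18636 ranked first by fold among the named genes that were higher at each stage. It was at 0.596 to 2.16 (median 1.11) at 48 h, then 4.29, 2.90, 4.44 and 3.83, then 1.31, 1.44, 1.69 and 1.40. No pooled cross exceeded 0.0370, and the log2 fold changes were 8.49 ± 0.19, 7.05 ± 0.14 and 7.59 ± 0.22. CG18636 had a UMI in 57.4%, 79.8% and 49.3% of LC4 cells, a smaller share than kn at each stage. The long noncoding RNA lncRNA:CR45223 had LC4 means of 3.92, 1.76 and 2.83 against 0.0132, 0.0459 and 0.405 in the pool. X cells alone had means of 0.00423, 0.508 and 1.92 for lncRNA:CR45223, and at 96 h their crosses overlapped with those of LC4. Among the 10 largest at 72 h was twit, with 4.12, 4.83, 4.09 and 4.03 in LC4 against at most 0.136 in a pooled cross, and its LC4 mean was 0.0405 at 48 h and 0.752 at 96 h.

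At 96 h CG17777 was at 13.9, 6.58, 6.71 and 5.77 in LC4 and at 0.104 to 0.397 in the pool, with the cross of DGRP 399 well above the others. CG32521 had an LC4 mean of 6.46 ± 1.04 against 0.304, and CG6154 one of 7.86 ± 0.766 against 0.617. Mpcp1, which encodes a mitochondrial phosphate carrier, stood at 1.31 ± 0.400 against 0.0340 at 48 h. On the low side, CG34353 was at 0.0292 ± 0.0202 against 6.05 at 96 h, the glutathione transferase gene GstE4 at 0.0234 ± 0.00306 against 4.32, and CG14459 at 0.0192 ± 0.0106 against 1.52 at 48 h.

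Some of the low genes owed most of their fold to 1 of the other types. CG12836 at 72 h had an LC4 mean of 0.0318, with LPLC1 crosses at 0.0786 to 0.168 and LPLC2 crosses at 4.85 to 6.27. The zinc-finger gene dati was at 0.0122 in LC4, 2.02 to 2.502 in LPLC1 crosses and 0.0213 to 0.0386 in LPLC2 crosses. Of the genes named here, lov, CG31760, CG34353, CG32521, 5-HT2B, Sytbeta, hbs and CAP overlap other genes on the same strand, and how the counting divided their reads was not tested.

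The DIP genes, receptors of the immunoglobulin superfamily, were divided at 48 h and mostly lower than the pool afterwards. Of 11, 10 and 10 tested at the 3 stages, 4, 1 and 0 were higher and 5, 8 and 9 lower, and the median log2 fold change of the list was -0.88, -3.20 and -5.13. Apart from both types stood 2, 1 and 0 as higher and 0, 2 and 2 as lower. Among all genes, 6.63%, 7.37% and 7.99% were called higher and 9.44%, 12.9% and 13.6% lower. These shares are the background for calls against the pool in this list and in every list below. For counts apart from both types the background is 3.56%, 4.52% and 4.76% higher and 4.02%, 6.27% and 6.95% lower. Counts near the matching share do not set a list apart. Where a list has 0 calls in a direction, the number past an unadjusted p under 0.05 in edgeR at any fold is added, and in each such case DESeq2 also called 0. For the DIP genes at 96 h that number was 0. DIP-beta turned from high to low. At 48 h it was at 2.54 to 3.77 (median 3.12) in LC4, above every LPLC1 cross (up to 0.614) and LPLC2 cross (up to 0.0775). At 72 h it was at 0.0817, 0.0433, 0.0612 and 0.0497, below every LPLC1 cross (1.28 to 1.87) and LPLC2 cross (0.171 to 0.372). The 4 values at 96 h were 0.00929, 0, 0 and 0.0229, and the log2 fold change against the pool was 4.29 ± 0.19, -3.87 ± 0.13 and -6.02 ± 0.37.

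DIP-theta remained high until 72 h. Its LC4 level was 1.69 to 3.27 (median 2.25) at 48 h and 2.52, 2.03, 2.11 and 2.24 at 72 h, when no pooled cross exceeded 0.536. At 96 h it was 0.167, 0.197, 0.0211 and 0.0840 and was not called against the pool. DIP-delta was among the lower genes at that stage, at 0.00837 in LC4 against means of 2.22 in LPLC1 and 0.0358 in LPLC2.

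Among the 21 dpr genes, 5, 4 and 3 were higher and 6, 4 and 7 lower at the successive stages, with list medians of -0.01, -0.10 and -0.08. dpr1 was at 18.4 to 26.4 (median 21.99) in LC4 at 48 h, against 7.1 to 7.64 in LPLC1 and 3.61 to 4.42 in LPLC2. dpr10 stood apart at 96 h, at 7.75, 8.45, 7.62 and 8.70 against 0.661 to 1.39 in the pool. On the other side, dpr9, outside the variable genes at 48 h, was at 1.42 to 2.46 (median 2.17) against 8.32 to 10.4 (log2 fold change -2.14 ± 0.09, adjusted p = 1.04e-12). dpr16 had LC4 means of 0.704, 0.0455 and 0.0102 against 2.91, 1.44 and 0.978, lower by 4.08-fold, 30.3-fold and 78.7-fold (adjusted p = 1.65e-11, 1.31e-11 and 7.37e-09). At 96 h dpr11 was at 0.0741 against 3.17 and dpr17 at 0.00836 against 1.21.

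Of 13 beat genes tested at each stage, 4, 1 and 3 were higher and 4, 7 and 7 lower. beat-VI was at 0.324 to 1.07 (median 0.432) in LC4 at 48 h, at 0.250, 0.316, 0.360 and 0.410 at 72 h and at 0.00929, 0.0146, 0.0316 and 0.0687 at 96 h. LPLC2 crosses had 6.57 to 8.05, 4.38 to 5.05 and 1.97 to 2.66, and LPLC1 crosses 4.39 to 6.02, 2.19 to 2.54 and 0.197 to 0.674, without overlap. beat-Va, beat-Vb and beat-Vc, which lie on arm 3R between 12746036 and 12934813, were at 4.21 ± 0.268, 3.25 ± 0.432 and 2.14 ± 0.545 in LC4 at 96 h against 0.986, 0.591 and 0.660 in the pool, higher than in both types. beat-IIa and beat-IIb, on 3R between 17232253 and 17366119, were outside the variable genes at 72 h and were lower by 2.13-fold and 3.19-fold (adjusted p = 1.76e-05 and 4.61e-07).

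The side genes encode partners of the Beat proteins, and 8 were tested at each stage. Higher were 4, 0 and 2 (2 unadjusted at 72 h) and lower 3, 2 and 1. side-II was at 2.54 to 3.31 (median 2.92) in LC4 at 48 h, against at most 0.177 in LPLC1 crosses and 0.675 in LPLC2 crosses. side-VI was the reverse, with 2.80, 2.64, 2.43 and 2.15 at 72 h against 6.68 to 7.62 in LPLC1 and 11.4 to 12.9 in LPLC2 (log2 fold change against the pool -1.87 ± 0.07, adjusted p = 3.8e-10).

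**Figure D3:**
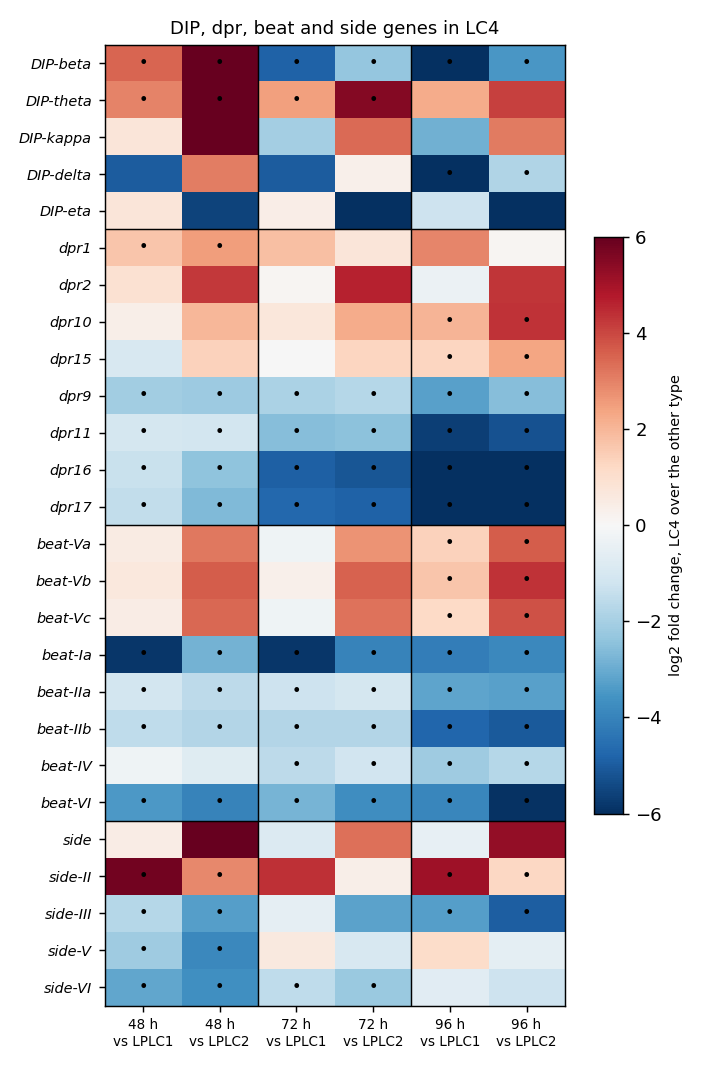
Log2 fold change of LC4 over LPLC1 and over LPLC2 at 48, 72 and 96 h APF for DIP, dpr, beat and side genes, as colours that saturate at -6 and 6. Dots mark genes that stood apart from both types in 1 direction, and grey cells were not tested. The colour of DIP-beta turns from higher to lower in LC4 after 48 h APF, while that of dpr16 and beat-VI stays on the lower side.

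Other immunoglobulin superfamily genes went both ways, with 7, 5 and 6 higher and 4, 6 and 6 lower of 18, 18 and 16. tutl (turtle) was at 31.6 to 41.3 (median 36.1) in LC4 at 48 h, at 69.6, 72.9, 69.3 and 67.7 at 72 h and at 70.9, 71.2, 60.7 and 57.2 at 96 h, above every LPLC1 and LPLC2 cross of its stage. Its log2 fold change was 1.54 ± 0.06, 1.62 ± 0.04 and 1.89 ± 0.10. bdl (borderless), whose protein binds Turtle in the fly eye, was likewise higher than in both types each time, with LC4 means of 1.06, 2.47 and 2.45 against 0.0735, 0.687 and 0.548, and so was fipi, at 0.885, 1.47 and 1.81 against 0.106, 0.238 and 0.185.

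Fas2, a homophilic adhesion molecule, turned as DIP-beta did. At 48 h it ran from 7.28 to 11.5 (median 8.57) in LC4 against at most 1.53 in any LPLC1 or LPLC2 cross. At 72 h it was at 0.235, 0.199, 0.336 and 0.220, under every LPLC1 cross (1.25 to 2.40) and LPLC2 cross (0.411 to 0.699). sdk (sidekick), an adhesion molecule of synaptic layers, was at 2.21, 2.47, 2.79 and 2.48 at 72 h against 0.669 to 0.853 in the pool, and at 3.87, 4.30, 3.43 and 4.48 at 96 h against 0.265 to 0.454. Dscam4 was at 7.29 to 10.6 (median 8.15) at 48 h against 1.62 to 2.52.

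No gene of the Wnt pathway list was called higher, and most were lower than the pool. Of all genes, 6.63%, 7.37% and 7.99% were called higher and 9.44%, 12.9% and 13.6% lower, so 0 higher in so short a list says little. Against both types, 0, 0 and 0 of the list were higher and 4, 5 and 3 lower. The list held 0, 0 and 0 higher (0 unadjusted at each stage) and 7, 7 and 6 lower of 10, 10 and 9 tested, with median log2 fold changes of -1.32, -2.34 and -2.18. The Wnt receptor fz (frizzled) was at 0.533 to 0.947 (median 0.788) in LC4 at 48 h against 2.38 to 3.60 in the pool (log2 fold change -1.93 ± 0.12, adjusted p = 1.45e-10). fz2 had LC4 means of 1.71, 0.285 and 0.315 against 9.53, 4.07 and 2.11. The Ryk family receptor Drl-2 was lower by 4.04-fold at 48 h and by 12.6-fold at 96 h (adjusted p = 5.46e-12 and 2.46e-08). The guidance list, beside the same shares of all genes, held 4, 1 and 1 higher and 3, 4 and 6 lower of 20, 20 and 19. Against both types, 1, 0 and 0 of the guidance genes were higher and 2, 2 and 3 lower. The netrin receptor fra (frazzled) was lower by 4-fold at 48 h (adjusted p = 2.98e-11).

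The teneurin Ten-m and the neuroligin Nlg2, both adhesion proteins that act across synapses, were lower in LC4 than in the pool at every stage. Ten-m was at 0.557, 0.627, 0.566 and 0.624 at 72 h against 3.49 to 3.97 in the pool (log2 fold change -2.56 ± 0.07, adjusted p = 2.73e-11). Nlg2 was at 1.49, 1.31, 1.34 and 1.32 against 3.81 to 4.18 (-1.50 ± 0.06, adjusted p = 1.45e-09). The list of neurexin, neuroligin and teneurin genes held 0, 0 and 0 higher (0, 1 and 1 unadjusted) and 2, 3 and 2 lower of 7.

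Of the leucine-rich repeat genes, 1, 0 and 0 were higher (1 unadjusted at 72 h and 0 at 96 h) and 6, 4 and 4 lower of 12. kek3 was at 0.0126, 0.0143 and 0.00564 against 0.698, 0.790 and 0.640, and caps (capricious) was lower by 4.59-fold at 72 h (adjusted p = 1.49e-10). Among the 11, 10 and 6 cadherins tested, 1, 2 and 1 were higher and 2, 3 and 2 lower. kug, a Fat-like cadherin, was at 0.528 against 3.97 at 72 h, and Cad87A was higher, with means of 1.20 against 0.169 at 72 h and 1.62 against 0.198 at 96 h.

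LC4 had more transcript of a GABA-gated channel subunit and of certain nicotinic receptor subunits than the other types. Rdl, a subunit of the GABA-A receptor, was at 171 to 196 (median 179) UMIs per 10000 in LC4 at 48 h, at 260.3, 254, 270 and 268 at 72 h, and at 137, 129, 131 and 124 at 96 h. The pooled crosses ran from 53.3 to 56.6, 58.3 to 60.6 and 33.4 to 39.5, without overlap. The log2 fold change was 1.77 ± 0.05, 2.21 ± 0.04 and 2.005 ± 0.07. Of the GABA receptors tested (6, 7 and 7), 2, 2 and 2 were higher and 0, 2 and 3 lower (3 unadjusted at 48 h), and the metabotropic receptor GABA-B-R1 was at 8.03 ± 0.735 against 2.67 at 96 h.

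Of the nicotinic acetylcholine receptor subunits, 2, 2 and 2 were higher and 2, 2 and 2 lower of 9, 10 and 9 tested. nAChRalpha7 was at 57.9 to 102 (median 69.6) at 48 h, at 90.0, 87.8, 108 and 102 at 72 h and at 48.7, 48.3, 46.5 and 48.7 at 96 h, and the pooled crosses, at 20.46 to 23.7, 16.5 to 18.3 and 9.66 to 15.2, all lay below. nAChRalpha5 was at 74.8 to 90.6 (median 86.7) against 17.5 to 31.4 at 48 h. At 72 h, with 64.4, 69.7, 72.2 and 72.2 against 32.5 to 37.3, it was called against the pool but did not stand apart from both types. At 96 h it stood at 84.1, 85.0, 68.1 and 72.6 against 5.55 to 8.68, a log2 fold change of 3.57 ± 0.09.

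nAChRalpha6 was the reverse at that stage, at 1.93, 2.91, 1.59 and 1.88 against 14.0 to 16.7. The muscarinic receptor mAChR-B was higher at 72 h (1.85 ± 0.135 against 0.732) and 96 h (1.83 ± 0.358 against 0.444). Of the glutamate receptors, 0, 0 and 0 were called higher (1, 0 and 2 unadjusted) and 3, 4 and 3 lower of 8, 9 and 8 tested. GluClalpha, a glutamate-gated chloride channel outside the variable genes, was at 10.5, 11.3, 11.7 and 9.23 at 72 h against 26.8 to 28.0 (log2 fold change -1.29 ± 0.06, adjusted p = 1.64e-09). At 96 h it was at 5.99, 7.11, 4.62 and 3.39 against 16.4 to 18.4 (adjusted p = 1.44e-05). Nmdar2, an NMDA receptor subunit, was lower by 2.22-fold at 48 h (adjusted p = 1.98e-08).

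Receptors for amines were mostly lower than the pool, with the octopamine receptor Oamb as an exception. Of 17, 16 and 16 tested, 2, 1 and 1 were higher in LC4 and 10, 12 and 12 lower, and the list medians were -2.20, -2.29 and -4.59 on the log2 scale. Against both types 2, 1 and 1 were higher and 3, 4 and 5 lower. Oamb was at 2.08 to 2.46 (median 2.23) in LC4 at 48 h, at 2.36, 2.92, 2.95 and 2.748 at 72 h and at 4.30, 4.27, 3.45 and 4.504 at 96 h, when pooled crosses had 0.206 to 0.490, 0.332 to 0.485 and 0.370 to 0.621. The dopamine receptor Dop1R1 had LC4 means of 0.0763, 0.0553 and 0.00827 against 0.851, 0.876 and 0.727. The serotonin receptor 5-HT2B was at 0.0115 against 1.03 at 72 h and at 0.00373 against 1.26 at 96 h, when LPLC1 crosses had 0.101 to 0.2002 and LPLC2 crosses 1.26 to 2.36. Dop2R, another dopamine receptor, was at 0.195 against 5.84 at 96 h.

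Neuropeptides and their receptors were also more often lower than the pool. Of 16, 14 and 11 neuropeptide genes tested, 1, 1 and 2 were higher in LC4 and 7, 10 and 9 lower. Against both types, 1, 0 and 2 were higher and 2, 7 and 4 lower. The diuretic hormone gene Dh31 was at 0.184, 0.199, 0.186 and 0.146 in LC4 at 72 h against 13.6 to 17.7 in LPLC1 and 1.96 to 4.32 in LPLC2. Its receptor gene Dh31-R was higher in LC4, at 0.912 to 2.996 (median 1.34), then 1.05, 0.790, 1.06 and 1.08, then 2.04, 1.46, 1.19 and 1.56, with no pooled cross above 0.267. Of the neuropeptide receptors, 9, 5 and 5 were higher and 12, 18 and 19 lower of 33, 32 and 30, with medians of 0.04, -1.41 and -2.24 on the log2 scale. Against both types the order at 48 h was the reverse, with 7, 5 and 5 higher and 3, 10 and 6 lower at the successive stages.

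Among these receptors, FMRFaR was at 0.176, 0.604, 0.916 and 1.32 in LC4 at 96 h against a pooled mean of 0.122. Lgr3, a relaxin-type receptor, was at 0.352 ± 0.0970 against 0.00885 at 72 h, and the neuropeptide F receptor NPFR at 0.943 ± 0.231 against 0.228 at 48 h. The allatostatin C receptor AstC-R1 was at 0.110 ± 0.0332 against 1.31 at 48 h and, outside the variable genes at 96 h, at 0.00373 against 0.189 (log2 fold change -5.12 ± 0.50, adjusted p = 5.62e-06). Tbh, which makes octopamine from tyramine, was at 0.227, 0.0750 and 0.0220 in LC4 against 1.09, 0.786 and 0.502.

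In the cAMP and calcium signalling list, 3, 4 and 6 were higher and 4, 7 and 5 lower of 25, 25 and 24. Ac78C, an adenylyl cyclase, was at 5.23 to 9.43 (median 6.89) in LC4 at 48 h, at 5.56, 6.16, 4.92 and 6.38 at 72 h and at 11.1, 11.7, 8.11 and 11.3 at 96 h, with pooled crosses at 0.494 to 1.098, 0.227 to 0.286 and 0.397 to 0.540. Another cyclase gene, Ac76E, was at 1.33 ± 0.0447 against 0.195 at 72 h and 1.48 ± 0.235 against 0.177 at 96 h. Pka-R2, a regulatory subunit of protein kinase A, was at 5.54 ± 0.664 against 1.77 at 48 h and 14.5 ± 1.66 against 4.25 at 96 h. The phosphodiesterase gene Pde9 was low, with 0.826, 0.907 and 0.211 against 6.28, 8.13 and 5.19. norpA, a phospholipase C, was lower by 3.69-fold at 72 h (1.97, 2.04, 1.86 and 2.01 against 7.18 to 7.93, adjusted p = 3.18e-11).

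Of the potassium channel genes, 1, 4 and 5 were higher and 2, 3 and 1 lower of 16, 17 and 16 tested, and of the sodium and calcium channel genes 0, 1 and 4 were higher (6 unadjusted at 48 h) and 1, 1 and 2 lower of 16. The background for these counts is the 6.63%, 7.37% and 7.99% of all genes called higher and the 9.44%, 12.9% and 13.6% called lower. Shab, a delayed rectifier, was at 25.1, 28.0, 25.4 and 27.5 at 72 h against 11.5 to 13.1, and at 44.8, 47.2, 36.0 and 42.0 at 96 h against 7.67 to 9.15. At 48 h Shab was not called (means of 9.91 and 11.8). Hk, a beta subunit of Shaker-type channels, was at 77.9 ± 5.37 against 25.9 at 96 h, and KCNQ, which carries a slow potassium current, at 2.17 ± 0.184 against 0.206. SLO2, of the large-conductance family, was lower by 5.14-fold at 48 h (0.805 to 1.14 (median 0.969) against 4.47 to 5.98, adjusted p = 8.56e-14) and by 2.53-fold at 72 h (adjusted p = 7.83e-09).

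cac, the presynaptic calcium channel, was at 35.5, 34.5, 39.6 and 30.4 at 96 h against 16.6 to 17.9 (log2 fold change 1.18 ± 0.09, adjusted p = 4.94e-07), and tipE, an accessory subunit of sodium channels, at 8.22, 8.88, 8.27 and 7.81 against 3.90 to 4.21 (1.23 ± 0.08, adjusted p = 2.74e-07). Neither overlapped with the pool. unc80, a part of the sodium leak channel complex, was lower at that stage (0.285 ± 0.0686 against 0.862, adjusted p = 1.6e-05). The T-type calcium channel Ca-alpha1T was low throughout, at 0.192 to 0.914 (median 0.347), then 1.01, 1.08, 1.07 and 1.04, then 0.613, 0.473, 1.02 and 1.07, when pooled crosses had 3.62 to 4.91, 6.49 to 7.01 and 9.18 to 11.5.

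**Figure D4:**
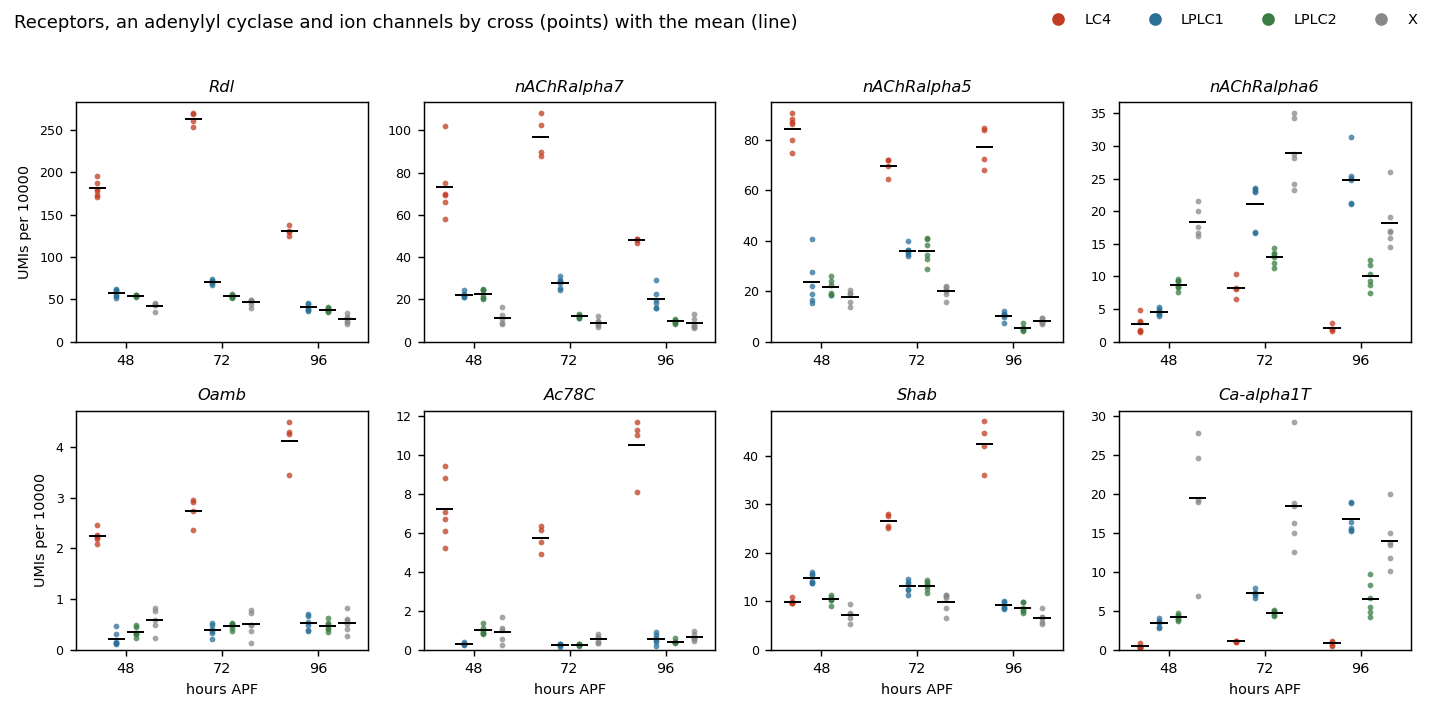
Levels of genes for receptors, an adenylyl cyclase and ion channels by cross in UMIs per 10000 (linear axis from 0) against hours APF, with points for crosses of LC4, LPLC1, LPLC2 and X that have at least 10 cells and a line at their mean. LC4 points of Rdl and nAChRalpha7 lie above the LPLC1 and LPLC2 points at each stage.

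Of the genes for synaptic vesicles and the active zone, 0, 0 and 1 were higher (6 and 5 unadjusted at 48 and 72 h) and 1, 4 and 3 lower of 24 tested. Of the 5 pan-neuronal markers 0, 0 and 1 were called higher (1 and 1 unadjusted at 48 and 72 h) and 0, 0 and 0 lower (4, 3 and 1 unadjusted). The marker called at 96 h was Syt1, the calcium sensor of vesicle release, at 50.6 against 28.1 (log2 fold change 1.03 ± 0.07, adjusted p = 3.19e-07). Syn (synapsin), outside the variable genes, was at 0.664, 0.706, 0.958 and 0.709 at 72 h against 2.31 to 2.53 (lower by 3-fold, adjusted p = 5.15e-09) and at 1.29, 1.02, 1.17 and 1.11 at 96 h against 4.90 to 5.84 (lower by 4.07-fold, adjusted p = 4.54e-09). Sytbeta, a synaptotagmin gene, was at 0.0531, 0.0258 and 0.0670 against 1.11, 1.05 and 1.69. Tomosyn, which restrains vesicle priming, was at 27.4 ± 0.593 against 9.47 at 96 h (log2 fold change 1.71 ± 0.07, adjusted p = 4e-09).

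RNA-binding protein genes included 1 called higher and 5 called lower of 12 at each stage. Syp (Syncrip) was at 27.4, 26.2, 32.1 and 27.4 at 72 h against 5.39 to 8.198 and at 39.0, 35.9, 29.5 and 30.3 at 96 h against 6.91 to 9.17. The ELAV family gene fne was lower at 72 h, at 11.1, 11.7, 13.2 and 12.4 against 27.6 to 39.6 (log2 fold change -1.39 ± 0.06, adjusted p = 1.56e-09). Of the genes induced by cell dissociation, 0, 0 and 0 were called higher (8, 1 and 0 unadjusted) and 0, 1 and 1 lower (1 unadjusted at 48 h) of 12, 12 and 11. The lower one at 72 h was Hsp60A, a mitochondrial chaperone, at 1.11 ± 0.0647 against 2.48 (adjusted p = 1.73e-08).

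The difference between LC4 and the pooled cells itself changed with stage for many genes. In 1 fit of all sums, in which the difference is taken within each library, 1144 of 7641 genes (15%) had a higher LC4 difference at 72 than at 48 h and 1215 (15.9%) a lower one at an adjusted p under 0.05. From 72 to 96 h, 806 (10.5%) were higher and 916 (12%) lower, and from 48 to 96 h 1316 (17.2%) and 1405 (18.4%). After thinning to 10000 UMIs per cell 658 were higher from 48 to 72 h, and 731 without DGRP 535. The split by direction depended on the processing. With DESeq2 size factors 880 were higher and 1417 lower from 48 to 72 h, and 968 and 800 from 72 to 96 h, while without the filter on low counts 1479 were higher and 1013 lower from 48 to 72 h. For 15 genes with a level of at least 1 UMI per 10000, the call turned from higher to lower than the pool or the reverse between stages.

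DIP-beta and Fas2 turned downwards between 48 and 72 h, by -8.13 ± 0.31 and -5.48 ± 0.19 on the log2 scale. GILT1, a lysosomal thiol reductase gene, was at 1.52 to 2.78 (median 2.26) in LC4 at 48 h, then 0.153, 0.155, 0.130 and 0.0824, then 0.0186, 0.00728, 0.0105 and 0.0153, and its difference changed by -3.70 ± 0.19 from 48 to 72 h and by -6.48 ± 0.39 from 48 to 96 h. The lipoprotein receptor gene mgl (megalin) went from 4.06 ± 0.483 to 0.580 ± 0.0490 and 0.355 ± 0.0910 in LC4, when the pool had means of 1.46, 1.099 and 0.977. Ccn, which encodes a matricellular protein, turned upwards. It was at 0.4931 to 0.736 (median 0.631) at 48 h against 3.27 to 5.01 in the pool, and then at 5.81, 5.82, 4.29 and 5.28 against 1.22 to 2.03, a change of 4.61 ± 0.19. Ccn in LPLC1 crosses was at 0.114 to 0.330 at 48 h and in LPLC2 crosses at 5.48 to 7.87.

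**Figure D5:**
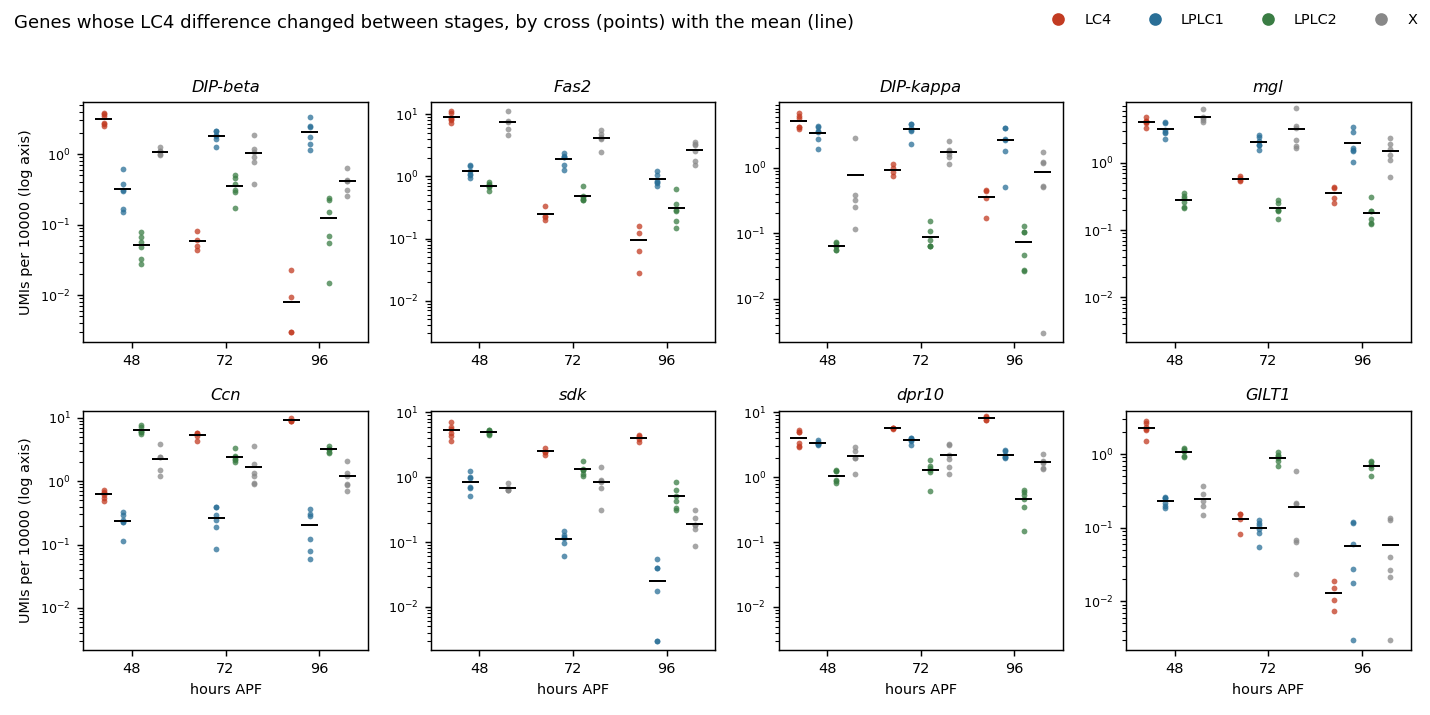
Levels by cross in UMIs per 10000 (log axis) against hours APF of 8 genes whose LC4 difference changed between stages, with points for crosses of LC4, LPLC1, LPLC2 and X that have at least 10 cells and a line at their mean. DIP-beta, Fas2, DIP-kappa, mgl and GILT1 go down in LC4 while Ccn goes up, and levels under 0.003 are drawn at 0.003.

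LC4 cells also varied among themselves. With each cell thinned to 10000 UMIs (345, 540 and 186 cells), the variance over the mean within a cross was taken for genes with a mean of at least 0.5 UMI. Counting noise alone gives a ratio near 1, and the median over all genes was 1.16, 1.11 and 1.22. The long noncoding RNA lncRNA:noe ranked first at every stage (103, 57.5 and 90.8), and the mitochondrial transcript mt:lrRNA was among the 3 that ranked highest (37.9, 29.0 and 61.7). Both were abundant, at means of 618, 923 and 548 UMIs for lncRNA:noe and 203, 184 and 202 for mt:lrRNA. The ranking was not matched for mean level. Nuclear protein-coding genes among the 10 largest were Rdl (19.6 at 48 h and 12.1 at 72 h), nAChRalpha7 (17.3) and Myo81F (12.1) at 48 h, the sodium channel gene para (7.69) at 72 h, and CG17777 (20.3) and the calmodulin gene Cam (18.7) at 96 h. The size of these ratios depends on the depth. With cells thinned to 5000 UMIs, 13 of the 30 ratios moved by more than the spread between crosses, Rdl falling to 10.2 at 48 h and CG17777 to 12.1 at 96 h.

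Of the recognition genes that could be ranked (94, 86 and 72), 23, 6 and 18 had a ratio of at least 2, with medians of 1.51, 1.3 and 1.46. That is 24.5%, 6.98% and 25% of them, beside 10.8%, 5.65% and 11.8% of all genes ranked. The shares were not matched for mean level, and the part of that level was not tested. At 48 h tutl, beat-IIIc, side, Fas2 and dpr1 had means of 34.9, 21.6, 32.1, 8.9 and 23.6 UMIs. The study's authors reported that the main variation among LC4 cells followed technical factors such as transcripts per cell. They described stable gradients of recognition genes for LPLC1 and LPLC2 but not for LC4. Their statement is on variation shared by many genes (principal components), which the ratio of a single gene does not measure. The ratio was not taken in LPLC1 or LPLC2 cells, so the values here do not bear on that statement. By this ratio tutl had 4.61, 3.84 and 6.90, beat-IIIc 4.91, 3.57 and 5.18, and side 3.51, 3.12 and 3.77. Fas2 was at 3.78 and dpr1 at 3.43 at 48 h, and dpr13 at 3.09 at 96 h. Thinned to 5000 UMIs, Fas2 had 2.42 at 48 h and tutl 5.73 at 96 h. Across crosses the ratio ranged from 1.82 to 8.46 for beat-IIIc and from 2.19 to 5.14 for Fas2 at 48 h, and from 6.56 to 7.07 for tutl at 96 h.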

How the data were processed

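Pupae were reared at 25 °C, GFP-positive cells were sorted, and each stage was 1 droplet library. The deposited values are raw UMI counts per gene and cell, which the authors made with Cell Ranger against the FlyBase annotation of dm6, and the mitochondrial percent per cell that the authors computed. They assigned cells to crosses by genotype with demuxlet, removing doublets between strains, and annotated Seurat 5.0.1 clusters. Doublets within a strain were not called here. The stated filter was 10000 to 50000 UMIs and at most 10% mitochondrial, but 309, 326 and 181 of the deposited final cells lay outside it, and all were kept.

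UMIs were summed per type and cross (at least 10 cells) and fitted with edgeR 4.0.16 in R 4.3.3, quasi-likelihood, TMM scaling, with the strain as a block. Same-strain sums deviated together in part (r from 0.143 to 0.547 over 14 sums, of which 10 correlated best with their own strain), and strains share a paternal chromosome and collection window. The pairing was weakest at 48 h, where DGRP 399, 535 and 799 had r of 0.329, 0.336 and 0.143 against up to 0.394, 0.432 and 0.353 with another strain. At 72 h DGRP 399 had 0.289 against 0.291. Each LC4 sum is from 1 cross, while the pooled sum of a strain mixes LPLC1, LPLC2 and X cells in shares that vary. At 48 h DGRP 799 had 155 LPLC1 and 119 LPLC2 cells, and DGRP 805 had 127 and 364. The p-values measure the spread over strains of the difference between LC4 and the pool, which includes this mixing. Intervals and limits for counts of 0 cover counting error only. Total UMIs in final cells were 50475870, 53123858 and 18900544. The 1000 variable genes were rebuilt with Seurat 5.3.0. Scripts were tested on simulated data.

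The genes and lists were chosen with earlier results of these data known. Named genes are, per stage and direction, the 10 with the largest fold among those apart from both types, changed alike in every cross and with a mean of at least 1 UMI per 10000 in the higher class, then up to 4 called members per list with the largest fold, the annotation factors and markers, and the 10 largest ratios of variance to mean. Tomosyn, erm, Dscam4 and other examples beyond this rule were chosen after their values were seen. Alternatives tried were DESeq2 1.42.0, other scaling and filters, thinning, no block, other pools and leaving out each strain. Coordinates are from Ensembl's BDGP6 annotation, which matched 99.7% of 17824 symbols.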

Additional observations from a re-analysis of the deposited data

Results flagged for a closer look

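In 43 checks of the spread among the LC4 crosses of a stage, 3 had a cross far from the others, where chance gives about 1 in 20. twit at 72 h APF was at 4.835 UMIs per 10000 in the cross of DGRP 535 and 4.028 to 4.116 in the others. CG17777 at 96 h APF was at 13.88 in the cross of DGRP 399 and 5.772 to 6.707 in the others, and lov at 96 h APF was at 1.812 in that cross and 1.981 to 2.008 in the others.

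The difference between LC4 and the pooled cells changed direction between stages for 15 genes with a level of at least 1 UMI per 10000 (edgeR, a test of the difference itself at an adjusted p under 0.05, in log2 units). From 48 to 72 h APF it changed by -8.134 for DIP-beta, -5.484 for Fas2, -4.328 for Lmpt, -4.038 for CG30158 and -3.699 for GILT1, and by 4.608 for Ccn. From 48 to 96 h APF it fell for DIP-beta (-10.34), GILT1 (-6.48), Fas2 (-5.951), CG30158 (-4.856), DIP-kappa (-3.416), dpr6 (-3.32), mgl (-2.77) and CG6878 (-2.16). It rose for Ccn (5.136), CG5890 (3.267), WASp (2.766), CG15431 (2.533) and CG44422 (2.399), and from 72 to 96 h APF for Nhe2 (2.198). Stage and library cannot be told apart, and the part of the pool's own change was not tested.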

How the results depend on the processing

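Counts of genes called against the pool or apart from both types stayed within 1.5 times the reported ones under every alternative run. Without the replicate block, the fit has no strain term. At 72 and 96 h APF it also takes in the pooled sums of DGRP 320 and 730, which had no LC4. Such fits gave 364 genes higher and 590 lower at 48 h APF, 482 and 806 at 72 h APF, and 425 and 817 at 96 h APF. Leaving out each strain in turn gave 446 to 497 higher and 670 to 700 lower at 48 h APF, 498 to 532 and 836 to 890 at 72 h APF, and 456 to 492 and 762 to 857 at 96 h APF. Thinning to 10000 UMIs per cell gave 402 and 575, 438 and 647, and 403 and 640. Counts of stage differences moved more, and their split by direction moved: DESeq2 size factors gave 880 higher and 1417 lower from 48 to 72 h APF and 968 and 800 from 72 to 96 h APF, and no low-count filter 1479 and 1013 from 48 to 72 h APF. Thinning gave 658 higher from 48 to 72 h APF, 526 lower from 72 to 96 h APF and 829 higher from 48 to 96 h APF. Leaving out a strain gave 731 to 1029 higher and 946 to 1264 lower from 48 to 72 h APF, 528 to 808 and 531 to 947 from 72 to 96 h APF, and 993 to 1207 and 1145 to 1455 from 48 to 96 h APF, with 731, 528 and 531 without DGRP 535.

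Of 3758 refits of 253 gene results, 3738 kept the direction and the side of the threshold, 8 lost the call, 9 gained it and 3 changed sign. The last were tup with LPLC1 and LPLC2 weighted equally, at log2 fold changes of 1.863, 1.922 and 2.351, a setting that averages the log2 fold changes against each type, of which that against LPLC2, nearly without tup, is the larger in size. The 200 refits of 20 stage changes kept direction and call.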
